A study of Mus musculus with 5 samples.

Results

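The haematopoietic stem cell (HSC) transcription factor core was taken as 10 genes chosen by name, Gata2, Runx1, Tal1, Lmo2, Lyl1, Fli1, Erg, Gfi1b, Mecom and Hlf, out of 55335 genes measured in bone marrow HSCs. All 10 were found, each as 1 row, and each was annotated as protein-coding. Transcript levels were measured by bulk RNA sequencing in 5 libraries, 3 from wild-type mice and 2 labelled RankCre-ki, all with the strain label C57BL/6J and, by the study's methods, from mice 3 weeks old. The labels give the genotypes only as wild-type and RankCre-ki. The study describes the latter as carrying Cre in 1 copy of Rank (Tnfrsf11a) with a floxed and a null allele of Csf1r. The study's methods state that the Csf1r null line was kept on C3H/HeJ, and the study describes the Cre as active in embryonic macrophages but not in HSCs, so that these macrophages and the osteoclasts are missing. HSCs were sorted as KSL cells (Kit+, Sca-1+ and without lineage markers) that carry CD150 and lack CD48, in pools of 80 to 90 cells. Whether each library came from a separate animal is not given in the sources used here, so p-values measure the spread between libraries, which may be technical. Values are given in the order of wild-type replicates 1, 2 and 3, then, after "against", RankCre-ki replicates 1 and 2.

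These factors bind DNA or bridge DNA-bound proteins at enhancers that are active in blood stem cells. Gata2, Runx1, Tal1, Lyl1, Lmo2, Fli1 and Erg are known to occupy many of the same enhancers, including those near one another's genes. Gfi1b represses transcription and limits the expansion of HSCs, and it also acts in erythroid and megakaryocytic cells. Mecom and Hlf are known for their part in keeping HSCs quiescent and self-renewing. The comparison asks how the levels of these regulators differ in HSCs that developed without embryonic macrophages.

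Promoter sequences are shown for the 3 factors with the smallest p in the comparison of genotypes below, Gata2, Lyl1 and Gfi1b, and for Tal1 and Erg, each of which has 1 promoter with the GATA letters AGATAA, the one shown, out of 2 for Tal1 and 3 for Erg. Of the 2 Gata2 promoters, that farther upstream is shown. RefSeq promoters (GRCm38.p6) were found for 8 of the 10 factors. Each line holds the 250 bases before a transcription start, 5′ to 3′ on the gene's strand. Capitals mark, on either strand, the letters AGATAA or a form of it with T as the first base, G as the last base or both. They lie at chr6:88193641-88193890 (+) for Gata2, chr8:84701207-84701456 (+) for Lyl1, chr2:28621983-28622232 (-) for Gfi1b, chr4:115056176-115056425 (+) for Tal1 and chr16:95459349-95459598 (-) for Erg.
Gata2: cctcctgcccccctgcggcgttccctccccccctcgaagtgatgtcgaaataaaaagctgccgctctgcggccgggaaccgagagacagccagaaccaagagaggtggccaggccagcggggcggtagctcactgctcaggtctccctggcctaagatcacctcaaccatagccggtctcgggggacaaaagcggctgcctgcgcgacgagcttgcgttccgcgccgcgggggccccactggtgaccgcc
Lyl1: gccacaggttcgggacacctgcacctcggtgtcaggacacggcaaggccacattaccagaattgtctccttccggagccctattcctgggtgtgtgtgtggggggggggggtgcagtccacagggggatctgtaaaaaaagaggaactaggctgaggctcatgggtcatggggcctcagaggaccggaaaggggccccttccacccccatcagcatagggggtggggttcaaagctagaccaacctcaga
Gfi1b: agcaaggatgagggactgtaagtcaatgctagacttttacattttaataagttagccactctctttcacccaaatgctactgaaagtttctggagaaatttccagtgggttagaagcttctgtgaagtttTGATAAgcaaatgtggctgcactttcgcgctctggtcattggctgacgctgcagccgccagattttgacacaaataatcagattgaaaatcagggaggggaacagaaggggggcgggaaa
Tal1: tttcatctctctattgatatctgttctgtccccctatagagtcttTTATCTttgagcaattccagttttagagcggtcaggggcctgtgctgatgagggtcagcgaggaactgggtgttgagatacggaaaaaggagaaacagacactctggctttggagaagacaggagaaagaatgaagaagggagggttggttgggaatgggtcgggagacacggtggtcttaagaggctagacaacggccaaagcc
Erg: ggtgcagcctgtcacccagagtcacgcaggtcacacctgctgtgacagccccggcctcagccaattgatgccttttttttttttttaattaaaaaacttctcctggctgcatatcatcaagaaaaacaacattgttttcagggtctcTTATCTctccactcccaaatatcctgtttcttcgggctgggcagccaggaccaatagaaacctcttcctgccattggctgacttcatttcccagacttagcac

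The Gata2 and Lyl1 promoters shown hold no such match. The Tal1 match began 205 bases, the Erg match 103 bases and the Gfi1b match 120 bases before the start. AGATAA was present in 2 of the 14 promoters of the 8 factors and in 9.99% of 32851 RefSeq promoters of this length. Any of these 4 forms, a search added after the data had been seen, was present in 5 of the 14 member promoters, those of Tal1, Erg, Gfi1b and both of Mecom, and in 26.5% of all promoters. The TAL1-type E-box CAGATG was found in 1 of the 14, a Mecom promoter, against 14.4% of all promoters. The ETS letters GGAAGT (19.7% of all promoters), the RUNX letters TGTGGT (14%), the E-box CAGCTG (13%) and the PAR bZIP letters TTACGTAA (0.113%) were found in 0 of the 14. Median GC content was 50.6% for the member promoters and 52.4% for all. These counts describe letters in the window and not bound sites.

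The labels were checked before the factors were compared. The gate was reflected in Kit (20.4 to 145 TPM), Ly6a, which encodes Sca-1 (47.7 to 185 TPM), and Slamf1, which encodes CD150 (16.5 to 41.8 TPM), in all 5 libraries. Cd48, absent by the gate, was listed at 0 in every wild-type library, against 4.92 and 5.62 TPM. Csf1r, the gene altered in the genotype that the study describes, had 2.39, 0 and 0.234 TPM against 17.5 and 6.46 TPM. It was thus not lower under the RankCre-ki label. The study describes the Cre as not active in HSCs, and the wild-type values were low, so Csf1r could not check the genotype labels. Tnfrsf11a had 0.0806 to 2.08 TPM. RankCre-ki replicate 2 is labelled female but had 62.5 TPM of the Y-linked gene Eif2s3y and 0.0229 TPM of Xist. Results without this library are given below for the factors and ratios that separated the groups and for some gene lists. Other results, such as those of the marker lists, are given only with it. From 9021 to 11084 genes reached 1 TPM in a wild-type library, against 12801 and 16386 genes. Library names form 2 series: name series 1 holds RankCre-ki replicate 2 with wild-type replicate 1, and name series 2 holds the other 3 libraries. The study's methods describe 2 tagmentation kits used on sets of this composition, and that these sets are the name series is inferred. The series also differ in sex transcripts: Eif2s3y was at 41.6 and 62.5 TPM in the libraries of series 1 and at 0.288 TPM or less in series 2, and Xist at 0.0273 TPM or less and at 5.16 to 22.5 TPM. Name series, kit and sex cannot be told apart here.

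All 10 factors were detected at 1 TPM or more in every library, except Tal1 at 0.321 TPM in wild-type replicate 1. TPM corrects for transcript length, so levels can be compared between genes. In order of mean log2(TPM + 1) over the 5 libraries they ran Lmo2 (8.21), Lyl1 (6.22), Mecom (5.56), Fli1 (5.55), Hlf (5.25), Gata2 (5.22), Gfi1b (5.13), Runx1 (4.66), Erg (3.50) and Tal1 (2.64). Lmo2 exceeded Lyl1 in 5 of 5 libraries by 1.99 ± 1.17 log2 units (SD, n = 5), and Runx1 exceeded Erg in 5 of 5 by 1.16 ± 0.97. From Lyl1 to Runx1, each neighbour exceeded the next by less than the SD of that difference between libraries, and Erg and Tal1 likewise differed by 0.86 ± 1.19. Among the 11053 tested protein-coding genes, Lmo2 lay between percentiles 94.9 and 97.5 in every library, whereas Tal1 lay between 25.1 and 52.7. Lmo2 alone held 55%, 59.6% and 51.5% of the summed TPM of the 10 factors in wild-type replicates 1 to 3 and 30.4% and 31.7% in RankCre-ki replicates 1 and 2, so the share of the other 9 factors was larger in both libraries labelled RankCre-ki.

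**Figure D1:**
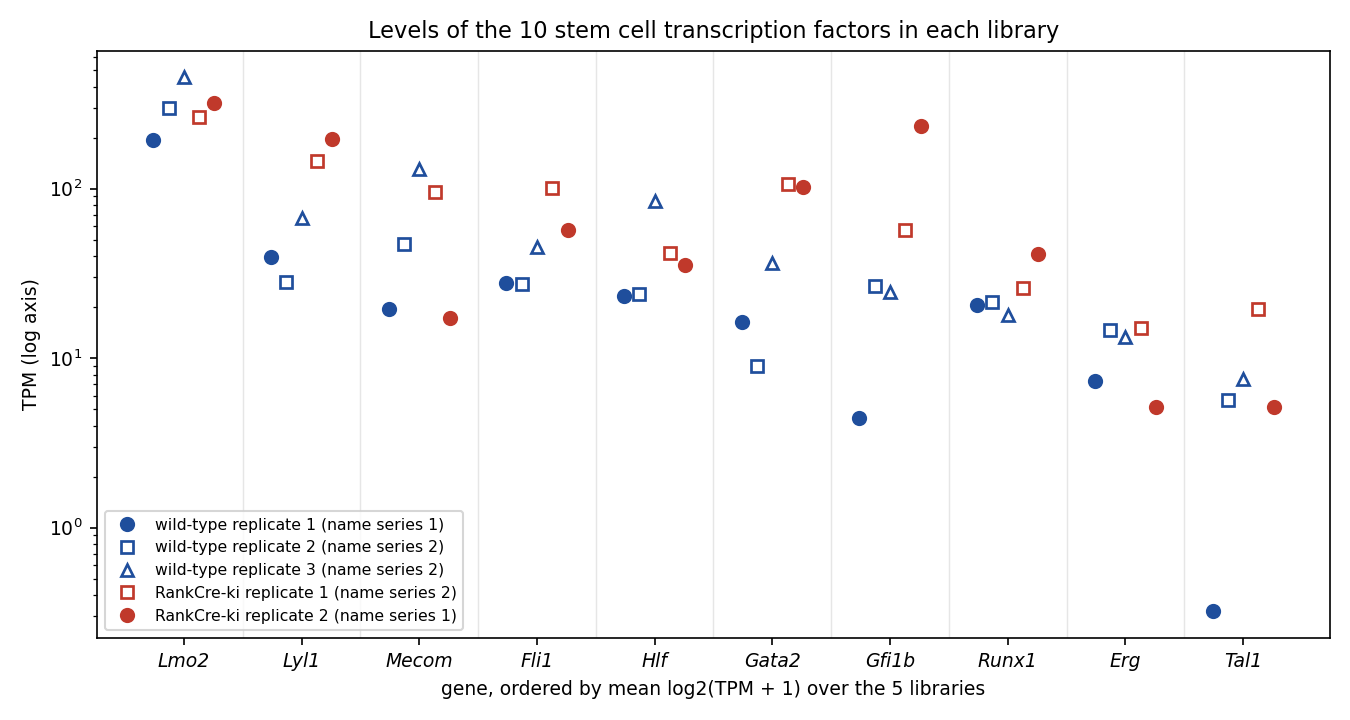
TPM (log axis) of each factor in each library, with colour for genotype and filled circles for name series 1. The RankCre-ki points lie above every wild-type point for Lyl1, Gata2, Gfi1b, Fli1 and Runx1, as they do for 18.8% of all tested genes, while Tal1 spans 0.321 to 19.6 TPM.

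Gata2 (chromosome 6, 88193891 to 88207032, GRCm38, as for all positions here), a zinc finger factor required for HSC formation and survival, measured 16.4, 8.93 and 36.4 TPM against 106 and 102 TPM. Both RankCre-ki libraries were thus higher than every wild-type library, and close to each other. The log2 fold change of (TPM + 1) was 2.50 ± 0.75 (SE), exceeding the all-gene median by 1.98, and limma gave an unadjusted p of 0.0108 (adjusted 0.521). In bulk RNA, a larger share of cells with a transcript and more transcript per cell cannot be told apart, here and for the other factors.

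Lyl1, a basic helix-loop-helix factor that pairs with E proteins and is a paralog of Tal1, measured 39.5, 28.3 and 67.3 TPM against 145 and 196 TPM. Again the groups did not overlap. Its log2 fold change came to 1.97 ± 0.58 (SE), and the limma p of 0.00951 (adjusted 0.521) was the smallest of the 10 factors. On chromosome 8 (84701457 to 84704715, GRCm38) the Lyl1 gene overlaps Nfix, a gene on the opposite strand, and the sources used here do not say whether strand was used. Nfix was at 27.8, 27.5 and 41 TPM against 8.54 and 11.3 TPM, which is the opposite direction to Lyl1.

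Gfi1b (chromosome 2, 28609450 to 28621982), the zinc finger repressor, measured 4.44, 26.8 and 24.7 TPM against 57.4 and 234 TPM. The groups did not overlap, but the spread was wide: the highest library had 52.7 times the TPM of the lowest, and both extremes belong to name series 1. The log2 fold change of Gfi1b came to 2.90 ± 0.99 (SE), for which limma gave an unadjusted p of 0.0189 (adjusted 0.545). Within name series 1 the change was 5.43 and within name series 2 it was 1.13. A limma interaction of genotype and name series gave a difference of -4.31 ± 0.42 (SE), for an unadjusted limma p of 0.014 (adjusted 0.282). Wild-type replicates 2 and 3 are the only libraries that share a genotype and a series, so the spread in this fit rests on that pair, and the difference cannot be told apart from one between sexes.

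Fli1 (chromosome 9, 32422204 to 32542861), an ETS factor of stem cells, megakaryocytes and endothelium, measured 27.7, 27.4 and 45.3 TPM against 101 and 57.1 TPM. Runx1 (chromosome 16, 92601466 to 92826149), the DNA-binding partner of Cbfb that is needed for blood cells to arise from endothelium, measured 20.7, 21.5 and 18 TPM against 26 and 41 TPM. For both factors the groups did not overlap. The log2 fold change was 1.20 ± 0.63 (SE) for Fli1, at a limma p of 0.0924 (adjusted 0.864). For Runx1 it was 0.68 ± 0.72 (SE), 0.17 more than the all-gene median, at a limma p of 0.373 (adjusted 0.952). Runx1 was the steadiest of the 10, with a residual SD of 0.28 log2 units, against a median of 0.74 for the 10 factors and 1.10 for all tested genes.

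Tal1 (chromosome 4, 115056426 to 115071755), which forms the DNA-bound complex with Lmo2, Ldb1 and Gata factors, measured 0.321, 5.68 and 7.52 TPM against 19.6 and 5.17 TPM. Lmo2 (chromosome 2, 103957986 to 103981878), the bridge of that complex, measured 195, 301 and 454 TPM against 265 and 322 TPM. In both cases the groups overlapped. Erg (chromosome 16, 95359169 to 95586593), the paralog of Fli1, measured 7.37, 14.7 and 13.3 TPM against 15 and 5.18 TPM. Mecom (chromosome 3, 29951296 to 30548008) measured 19.4, 47.3 and 131 TPM against 95.5 and 17.3 TPM. Both were lowest in the libraries of name series 1 for each genotype. Hlf (chromosome 11, 90336536 to 90390895) measured 23.2, 23.9 and 84.8 TPM against 41.5 and 35.5 TPM, between the wild-type extremes. The log2 fold changes were 1.42 ± 1.43 (SE) for Tal1, -0.03 ± 0.48 for Lmo2, -0.31 ± 1.07 for Erg, -0.27 ± 1.0 for Mecom and 0.08 ± 0.78 for Hlf, each smaller in size than its SE, with limma adjusted p from 0.948 to 0.999.

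None of the 10 factors passed the cut-off used in the study (adjusted p no larger than 0.1 and absolute log2 fold change above 2), which 0% of the 13981 genes tested by limma passed. The study applied this cut-off to another test, DESeq2 on counts with Independent Hypothesis Weighting, and reported genes past it in both directions. The share of 0% belongs to limma on log2(TPM + 1) and cannot be set against the study's count. At an unadjusted limma p under 0.05 there were 3 of the 10 factors, each with the higher level under the RankCre-ki label (Gata2, Lyl1 and Gfi1b), where 6.34% of all tested genes were higher and 0.529% lower at that p. Non-overlapping groups with RankCre-ki on top were found for 5 of the 10 factors, against 18.8% of all tested genes, and with RankCre-ki at the bottom for 0 of the 10, against 3.71%. The fold change was above 0 for 7 of the 10, against 72.3% of all tested genes, a share close to the background. The median log2 fold change of the 10 factors was 0.94, beside 0.52 for all tested genes. This excess of 0.42 was 0.09 with a pseudocount of 0.1, 0.14 without wild-type replicate 1, 0.07 without RankCre-ki replicate 1 and 0.68 without RankCre-ki replicate 2. After median-ratio scaling the medians were 0.44 and 0.16, and after quantile normalization 0.46 and -0.09. Under both scalings Runx1 no longer separated the groups, leaving Gata2, Lyl1, Fli1 and Gfi1b. The shares of all tested genes with RankCre-ki on top without overlap were then 12.2% and 11.6%.

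The result depended on single libraries. Without RankCre-ki replicate 2, 0 of the 10 factors had an unadjusted limma p under 0.05 with 1 library left in that group, and 7 exceeded every wild-type library, beside 33.8% of all genes. The log2 fold changes were then 2.52 for Gata2 (limma p of 0.0755), 1.75 for Lyl1 (0.0716), 1.60 for Fli1 (0.0655), 0.36 for Runx1 (0.639) and 1.89 for Gfi1b (0.236). Without RankCre-ki replicate 1, the limma p of Lyl1 (0.0358) and of Gfi1b (0.04) stayed under 0.05 and that of Gata2 (0.0765) did not. With the name series as a block, the limma p was under 0.05 for Gata2, Lyl1, Gfi1b and also Fli1 (0.0499), and the smallest adjusted p of the 10 was 0.267. In that fit 8.89% of all tested genes were higher under the RankCre-ki label at an unadjusted limma p under 0.05.

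**Figure D2:**
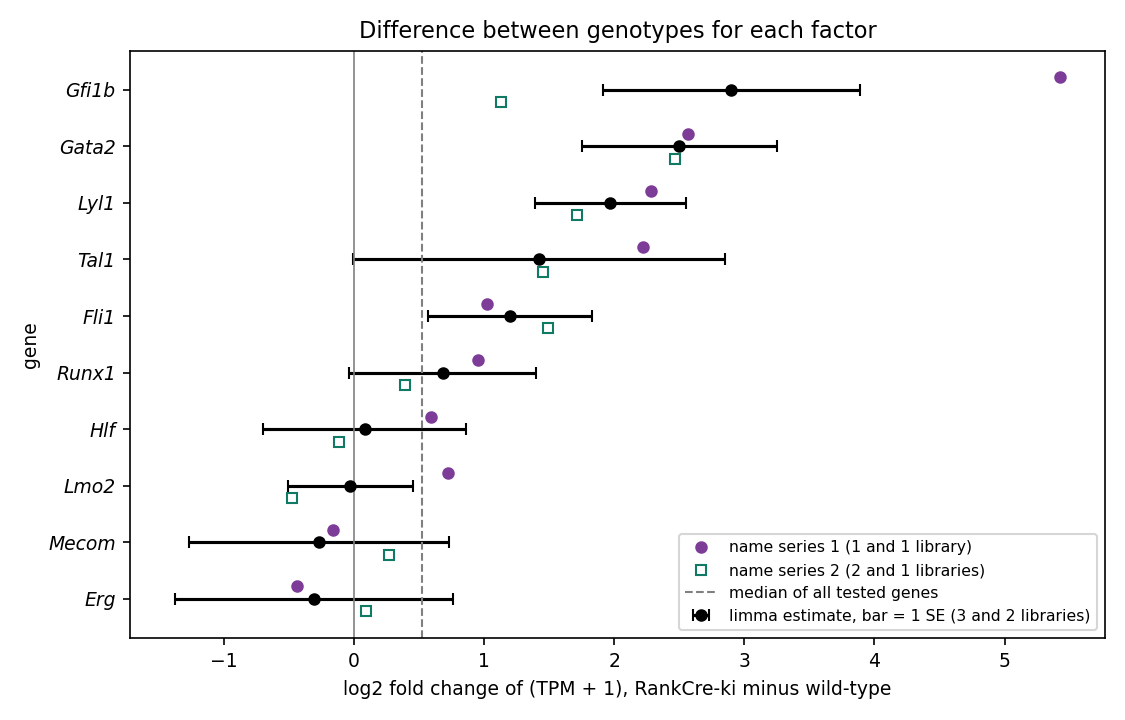
Log2 fold change of (TPM + 1) for each factor, RankCre-ki minus wild-type, as the limma estimate ± 1 SE and within each name series, with the median of all tested genes (0.52) as a dashed line. Gata2 changes by 2.57 and 2.47 in the 2 series, whereas Gfi1b changes by 5.43 and 1.13.

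Within the name series, 6 of the 10 factors were higher in the library labelled RankCre-ki in both, which 44.5% of all tested genes were, and 0 were lower in both (12.9% of all tested genes). These 6 were Gata2 (2.57 and 2.47 log2 units in series 1 and 2), Lyl1 (2.28 and 1.71), Gfi1b, Tal1 (2.22 and 1.45), Fli1 (1.02 and 1.49) and Runx1 (0.95 and 0.39). Lmo2 (0.72 and -0.48), Hlf (0.59 and -0.12), Erg (-0.44 and 0.09) and Mecom (-0.16 and 0.27) changed sign between the series.

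The level of the 10 factors was set beside that of the whole library. Their mean log2(TPM + 1) was 4.12, 4.75 and 5.50 in wild-type replicates 1 to 3 and 5.96 and 5.64 in RankCre-ki replicates 1 and 2, while the mean over all tested genes was 2.92, 2.89 and 3.43 against 3.72 and 3.71. The factors exceeded all genes by 1.20, 1.85 and 2.07 in the wild-type and 2.25 and 1.93 in the RankCre-ki libraries, and here the groups overlapped. The part of library composition in the results for single factors was not tested. The 5 other protein-coding genes of at least 10 TPM whose centred profile over the 5 libraries came closest to the mean profile of the 10 factors were Actr2, Hspd1, Ppp3r1, Arfgap2 and Klhdc3, at a root mean square distance of 0.074 to 0.109 log2 units among 6471 candidates. Fli1 was the factor nearest to that mean profile (0.302) and Gfi1b the farthest (1.302).

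Ratios between genes of the same library do not change with its scaling, apart from the pseudocount of 1, and were compared for 12 pairs of a factor with a paralog, a binding partner or Spi1, the myeloid factor that Gata2 is known to oppose. With 3 against 2 libraries the exact two-sided permutation test cannot go below p = 0.2. For 4 pairs the groups did not overlap, with an exact permutation p of 0.2 (adjusted 0.6 over the 12 pairs). The log2 ratio of Fli1 to Erg was 1.78, 0.86 and 1.69 in wild-type replicates 1 to 3 and 2.67 and 3.23 in RankCre-ki replicates 1 and 2. The ratio of Lyl1 to Tcf3, one of the genes for E proteins, was 2.29, 2.27 and 1.97 against 3.87 and 3.60, so each group was tight and the difference was 1.55. Ratios to the E protein genes Tcf4 and Tcf12 were not compared. Tcf4 was at 19.9, 9.11 and 33.6 TPM against 53.4 and 52.4 TPM, and Tcf12 at 19.7, 33.6 and 24 TPM against 15.6 and 18 TPM. Gata2 to Spi1 went from -2.29, -2.17 and -0.82 to 0.02 and -0.24, that is from below Spi1 to about the level of Spi1.

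Lmo2 to Ldb1 was the 1 of these 4 ratios that was lower in the libraries labelled RankCre-ki, at 4.87, 6.50 and 6.74 against 3.79 and 3.36. Ldb1 encodes the LIM-binding protein that joins Lmo2 to other enhancer complexes. It measured 5.71, 2.34 and 3.26 TPM against 18.2 and 30.4 TPM (limma p of 0.0646), while Lmo2 itself overlapped between the groups. Without RankCre-ki replicate 2, the log2 fold change of Ldb1 was 2.07 (limma p of 0.223), and the differences in log2 ratio were 1.23 for Fli1 to Erg, 1.69 for Lyl1 to Tcf3, 1.78 for Gata2 to Spi1 and -2.24 for Lmo2 to Ldb1. For the other 8 ratios the groups overlapped. Tal1 stayed below Lyl1 in 5 of 5 libraries, with log2 ratios of -2.13 or less. Gata2 exceeded Gata1, the erythroid and megakaryocytic paralog, in 4 of 5 libraries: Gata1 was at 52.8 TPM in wild-type replicate 1, listed at 0 in wild-type replicates 2 and 3, and at 17.1 and 15.3 TPM under the RankCre-ki label.

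**Figure D3:**
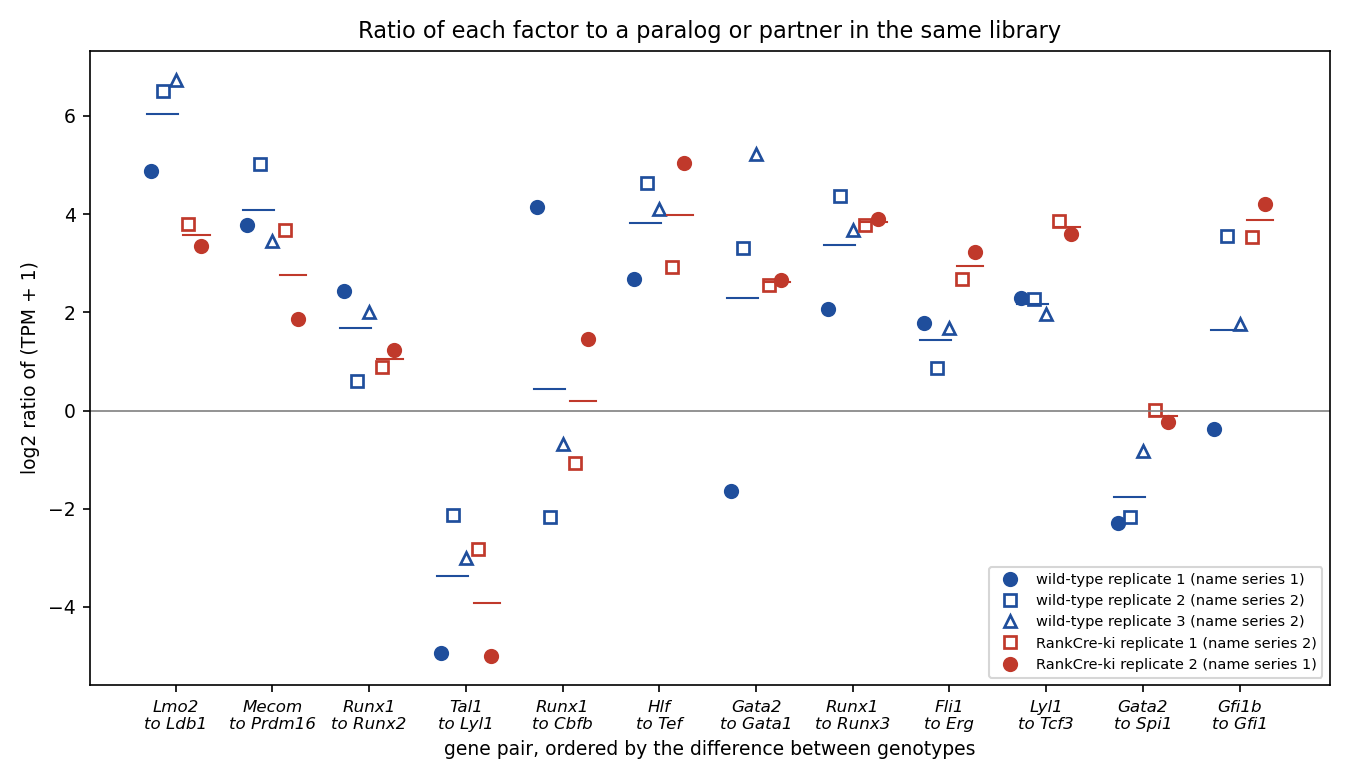
Log2 ratio of (TPM + 1) for 12 gene pairs in each library, with short lines at the group means. The groups separate for Lmo2 to Ldb1, Fli1 to Erg, Lyl1 to Tcf3 and Gata2 to Spi1, and the wild-type libraries spread over several log2 units for Gata2 to Gata1 and Runx1 to Cbfb.

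Genes around the core were examined as lists, with the 10 factors themselves left out. Among 20 partners and cofactors, such as E proteins, Ldb1, Cbfb and the corepressors used by Gfi1b, 0 had an unadjusted limma p under 0.05, and their median log2 fold change was 0.25, below the 0.52 of all genes. The most abundant were Ssbp2, which stabilises Ldb1 (166, 218 and 372 TPM against 368 and 219 TPM), and Hdac1, a histone deacetylase (106, 100 and 144 TPM against 200 and 93.6 TPM). For 4 of the 20 the RankCre-ki libraries were on top without overlap, and for 1 at the bottom, beside 18.8% and 3.71% of all tested genes. The number on top was 8 without wild-type replicate 3 (32.7% of all tested genes), 7 without RankCre-ki replicate 2 (33.8%) and 2 after quantile normalization (11.6%). Cbfb, the partner of Runx1, ranged from 0.224 to 99.7 TPM among the wild-type libraries alone. Of the 4 Id genes, whose proteins block E proteins, only Id1 and Id2 were tested, with log2 fold changes of 1.69 ± 1.45 and 0.02 ± 0.82 (SE).

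Among 12 paralogs of the factors, 10 were tested and 0 had a limma p under 0.05 or groups that did not overlap. Gata1 and Lmo1 were the most abundant, and Lmo1 was listed at 0 in wild-type replicate 1 and at 27.8 to 40.9 TPM in the other 4 libraries. Among 36 other transcription factors of stem cells, 35 were tested and 1 had a limma p under 0.05, namely Hhex, a homeobox gene (48.4, 40.7 and 47.4 TPM against 132 and 103 TPM, limma p of 0.0325, adjusted 0.626). The most abundant were Nfe2, a factor of platelet formation (121 to 504 TPM), and Egr1, an immediate early gene (124 to 300 TPM). The RankCre-ki libraries were on top without overlap for 8 of the 35, beside 18.8% of all genes, and for 2 of the 35 after median-ratio scaling, beside 12.2%. They were at the bottom without overlap for 2 of the 35, beside 3.71%. The number on top was 18 without wild-type replicate 3, beside 32.7% of all genes, and 16 without RankCre-ki replicate 2, beside 33.8%. Of 20 lineage factors, 7 were tested and 0 had a limma p under 0.05, and Cebpa, Cebpe and Tbx21 were listed at 0 in all libraries. For 1 of the 7, Foxo1, the RankCre-ki libraries were at the bottom without overlap, beside 3.71% of all tested genes.

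A list of 22 genes of stem cells and megakaryocytes was written from general knowledge as candidate targets of the core, and 20 were tested. Of these, 5 had an unadjusted limma p under 0.05, each higher under the RankCre-ki label, beside 6.34% of all tested genes. The RankCre-ki libraries were on top without overlap for 7 of the 20, beside 18.8% of all tested genes, and the median log2 fold change was 0.77, beside 0.52. Without RankCre-ki replicate 2 the number on top was 14, beside 33.8% of all tested genes. Esam, an adhesion molecule of HSCs and endothelium, was at 10.9, 9.73 and 32.4 TPM against 137 and 94 TPM (log2 fold change 2.82 ± 0.76 (SE), limma p of 0.00602). Eng, a TGF-beta co-receptor, was at 9.52, 13.8 and 37.2 TPM against 108 and 80.7 TPM (limma p of 0.0151). Procr and Hhex, also among the 5, were named after their values were seen. The limma adjusted p was 0.521 for Esam and 0.523 for Eng. Without RankCre-ki replicate 1 the number of candidate targets at an unadjusted limma p under 0.05 was 0, beside 5.98% of all tested genes, and without RankCre-ki replicate 2 it was 3, beside 5.12%. In the latter fit the log2 fold change was 3.08 for Esam (limma p of 0.0409), 2.59 for Eng (0.0715), 2.06 for Procr (0.116) and 1.53 for Hhex (0.0357). The list was written with earlier results of these libraries known, those of Procr among them, so its count is not independent evidence.

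**Figure D4:**
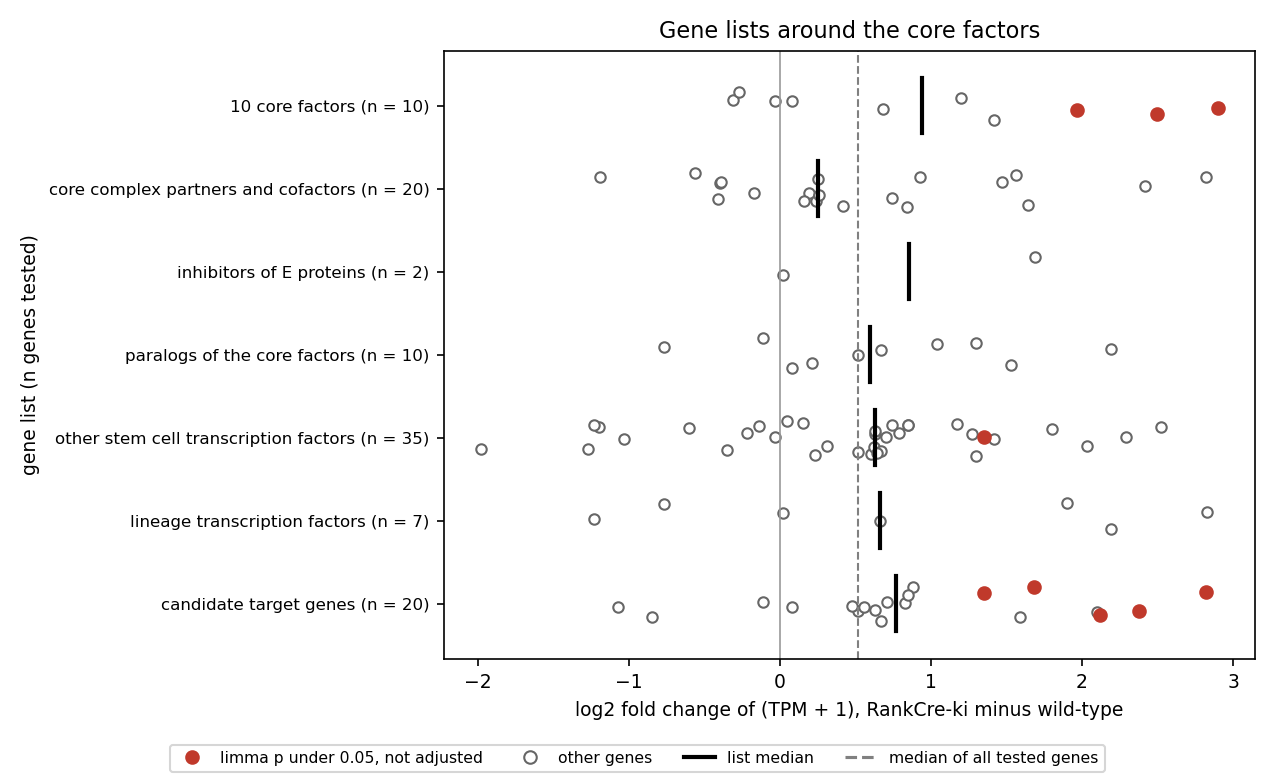
Log2 fold change of (TPM + 1), RankCre-ki minus wild-type, for every tested gene of 7 lists, with list medians as black lines and the median of all tested genes as a dashed line. Genes with an unadjusted limma p under 0.05 (filled) are 3 of the 10 factors, 5 of the 20 candidate targets and 1 of the 35 other stem cell factors.

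Markers of other cells that express these factors were set beside the results. Of 12 erythroid markers, 10 reached 1 TPM in each genotype, and their summed level was 1069, 1248 and 1908 TPM against 2079 and 2919 TPM. In every library except RankCre-ki replicate 2, where it was at 1336 TPM, most of this was Car2, which encodes a carbonic anhydrase. Without it the sum was 281, 147 and 155 TPM against 340 and 1583 TPM, so it was highest in the library in which Gfi1b reached 234 TPM. In that library Klf1, the erythroid regulator, was at 46.3 TPM, against at most 1.73 TPM in the others, and the beta-globin gene Hbb-bt was at 632 TPM. Slc4a1, which encodes a red cell membrane protein, was listed at 0 in all 5 libraries. The part of erythroid transcripts in the levels of Gfi1b, Gata2 and Lyl1 was not tested.

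The 12 markers of the HSC gate, which include Procr, summed to 556, 565 and 843 TPM against 1406 and 902 TPM, without overlap. The sums of the remaining lists overlapped between the genotypes. At an unadjusted limma p under 0.05, 2 of 5 tested myeloid and 1 of 4 tested lymphoid markers were higher under the RankCre-ki label, beside 6.34% of all tested genes. The myeloid markers were Csf1r and S100a8 (0.0677, 0 and 0 TPM against 8.31 and 12.9 TPM). The lymphoid marker was Klrb1c (0.0516, 0 and 0 TPM against 4.4 and 12.8 TPM). The 12 megakaryocyte and platelet markers summed to between 83 and 227 TPM against 197 and 183 TPM, with Pf4 at 38.4 to 147 TPM. Endothelial markers summed to between 177 and 311 TPM against 325 and 188 TPM, and Cdh5, which defines endothelium, was at 0.0572 TPM or less. Plvap and Sox17 were listed at 0, whereas Egfl7 (111 to 206 TPM), Emcn (22.9 to 59.6 TPM) and Pecam1 (18.3 to 33.1 TPM) were present in every library. Sox18 reached 46.2 TPM in wild-type replicate 3, and Ramp2 was at 0.0706, 0 and 6.54 TPM against 7.15 and 7.7 TPM. Mast cell and basophil markers, of interest because these cells express Gata2, summed to at most 15 TPM, and Ms4a2 was at 0.0162 TPM or less. Myeloid markers summed to between 426 and 656 TPM against 645 and 519 TPM with Elane, Ctsg and Fcgr3 listed at 0 throughout, and most of it was Prtn3 (175 to 421 TPM) and Lyz2 (103 to 311 TPM). Lymphoid markers summed to between 42.2 and 195 TPM against 101 and 78 TPM with Cd79a and Dntt listed at 0 throughout, and most of it was Cd79b (30.8 to 147 TPM) and Nkg7 (0 to 45.7 TPM).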

How the data were processed

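Poly(A) RNA of sorted HSCs was converted to full-length cDNA with template switching, amplified and tagmented by the authors. The deposited values are TPM per gene, scaled by the authors so that each library sums to 1000000. The study's methods describe alignment with gsnap to mm10, and the submitters' processing notes name bcl2fastq 2.20.0 and featureCounts 2.0.1, but the tool that made the TPM is not given in the sources used here. TPM carries no read depth, so no counting interval can be given, and only the spread between libraries shows the precision. Spike-in rows (92, all at 0) were removed.

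Values were transformed to log2(TPM + 1), a scale that makes changes of low genes look smaller. The 13981 genes that reached 1 TPM in 2 or more libraries were fitted with limma 3.58.1 in R 4.3.3 (lmFit, eBayes with trend, two-sided, all 5 libraries, no covariate), with Benjamini-Hochberg adjustment over all tested genes, and the code was tested on simulated data. Positions come from GENCODE M21 (GRCm38). The members, the gene lists and the pairs were chosen with earlier results of these data known. Genes were named by a rule: the 10 factors, the genes of the pairs, the 2 most abundant genes of each list, up to 3 genes per list and direction with the smallest p under 0.05, and the 5 nearest profiles. Alternatives covered the pseudocount, the filter, scaling, blocks, eBayes without trend, the threshold and leaving out each library. Some genes that this rule names are not reported here.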

Additional observations from a re-analysis of the deposited data

How the results depend on the processing

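Across the alternatives, the 3 factors Gata2, Lyl1 and Gfi1b had an unadjusted limma p under 0.05 under every pseudocount, filter, scaling and block tried, in the fit without trend and without any 1 wild-type library, and 0 factors passed the threshold anywhere. Leaving out a RankCre-ki library leaves 1, which is then assumed to vary like the wild-type libraries. Over the fits that each left out 1 library, the number of all genes past the threshold ran from 0 to 304 (304 without RankCre-ki replicate 1), the number of factors at an unadjusted p under 0.05 from 0 to 3, the number above all wild-type libraries from 5 to 7, the number below them from 0 to 2 (Erg and Mecom, without RankCre-ki replicate 1), the excess of the factors' median over that of all genes from 0.07 to 0.68, and the number of ratios with separate groups from 4 to 8 (7 without wild-type replicate 2 and 8 without RankCre-ki replicate 1). Over the same fits, the share of all tested genes above all wild-type libraries ran from 24.3% to 33.8%, and the share below them from 5.66% to 12.3%. Quantile normalization placed 1 factor, Erg, below all wild-type libraries, beside 11.2% of all tested genes. The cause of these changes was not tested, other than the smaller group.

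Factors with changes near 0 turned sign. Over the fits that each left out 1 library, the log2 fold change ran from -0.34 to 0.27 for Lmo2, -1.47 to 0.93 for Mecom, -0.23 to 0.68 for Hlf and -1.0 to 0.37 for Erg, and the ratio difference from -1.66 to 1.77 for Gata2 to Gata1, -0.18 to 0.96 for Runx1 to Runx3, -0.87 to 1.25 for Hlf to Tef, -1.55 to 1.61 for Runx1 to Cbfb and -1.64 to 0.53 for Tal1 to Lyl1. Hlf was at -0.41 after median-ratio scaling, -0.20 after quantile normalization and -0.09 after rescaling to nuclear protein-coding genes. Lmo2 was at 0.00 after quantile normalization and 0.03 with the name series as a block, where Mecom was at 0.09. With a pseudocount of 0.1 the ratio difference was -1.76 for Gata2 to Gata1 and -0.17 for Runx1 to Runx3.

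The replicate numbers of the labels share only a number: deviations from the group means correlated at -0.38 for the libraries numbered 1 and at -0.195 for those numbered 2 across genes. With the replicate block, 1 gene of all tested passed the threshold, Lmo2 was at 0.27 and Mecom at 0.42, and the same 3 factors had an unadjusted p under 0.05.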
